A study of Homo sapiens with 32 samples.

Results

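The unmodified parents of both isogenic series were compared with each other: 786-O, a clear cell renal cell carcinoma (ccRCC) line, and RPTEC, renal proximal tubule epithelial cells immortalized with hTERT. Each parent carries SETD2 WT, received no treatment and was profiled by 2 immunoprecipitated (IP) libraries of methylated RNA immunoprecipitation-sequencing (MeRIP-seq), so 4 of the 16 IP libraries of the series form the comparison. The other 12 libraries come from SETD2KO-1, SETD2KO-2 and the rescued SETD2KO-1R line of each cell line, and are used here only to ask whether a difference seen between the parents returned in libraries that did not define it. Each knockout line is 1 clone of its parent, and SETD2KO-1R is a clone of SETD2KO-1 that expresses a FLAG-tagged SETD2 transgene. 786-O was grown in RPMI1640 and RPTEC in DMEM F12 with a growth supplement, so medium and cell line cannot be told apart. Peaks of the 4 WT lists on chromosomes 1 to 22 and X were merged where they overlapped by at least 1 bp, and a library was said to call a region when a peak overlapped it by 1 bp. This gave 58997 merged regions. Regions called in both libraries of one parent and in neither of the other are named 786-O-only (5176 regions, 8.77% of all regions) and RPTEC-only (2091 regions, 3.54%), and these calls are a description of the selection, not a test. A further 9203 regions (15.6%) were called in all 4 libraries. The excess of 786-O-only regions rests on the libraries used: without RPTEC WT replicate 2 it turned, with 6503 786-O-only against 7553 RPTEC-only regions. No read counts are in the lists, which leaves the depth of each library unknown, and a missing peak cannot be told apart from a transcript that is scarce or absent.

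N6-methyladenosine (m6A) is placed on nascent RNA by a methyltransferase complex built around METTL3 and METTL14, can be removed by FTO and ALKBH5, and is read by YTH-domain proteins that affect splicing, translation and decay. It is typically dense near stop codons and also occurs in introns. The first transcribed nucleotide can carry a related mark, m6Am, which m6A antibodies also bind, so a peak at a gene start does not tell these marks apart. The antibody enrichment of MeRIP-seq reports a stretch of RNA, so a peak marks a place within a transcript and not a single base. The proximal tubule reabsorbs glucose, phosphate, bicarbonate and amino acids through dedicated transporters, and ccRCC is thought to arise from its epithelium.

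Several regions covered whole miRNA arms, so that the called stretch holds the complete miRNA sequence. A few arms are printed as examples, without a fixed rule of choice, so they do not represent all such regions. The lists carry no strand, so an overlap does not place the peak on the primary transcript of the miRNA. Of 95 hairpins with every mature arm of the sequence set used inside 1 merged region, 2 lay in RPTEC-only regions, 12 in 786-O-only regions and 30 in regions of all 4 libraries. For some hairpins, such as MIR6821, that set held only 1 arm, and the region did not cover the whole hairpin. Counted by region, since hairpins can share one, 1 of the 89 regions that held them was RPTEC-only (1.12%, against 3.54% of all regions), 11 were 786-O-only (12.4%, against 8.77%) and 27 were called in all 4 libraries (30.3%, against 15.6%). The sequences are RefSeq mature miRNAs (GRCh38.p14), 5′ to 3′, with the seed, bases 2 to 8, in capitals, and the 6 arms shown have 6 different seeds.
miR-137-3p: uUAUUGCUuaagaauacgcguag
miR-2682-5p: cAGGCAGUgacuguucagacguc
miR-196b-5p: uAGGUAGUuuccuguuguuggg
miR-210-3p: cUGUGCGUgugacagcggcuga
miR-34a-5p: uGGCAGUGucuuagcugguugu
let-7i-5p: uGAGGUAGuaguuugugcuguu

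The mature arms of MIR137 and MIR2682, on the minus strand, lay in the host gene MIR137HG and in 1 RPTEC-only region, chr1:98044331-98046149. Its peak stood at the within-list score percentiles 48.0 and 51.2 in the RPTEC WT libraries, where 100 is the highest-scoring peak of a list. It was called in 5 of the 6 other RPTEC libraries and in 0 of the 6 other 786-O libraries. MIR196B, in the HOXA cluster, lay in the 786-O-only region chr7:27169209-27170396, which also overlaps HOXA10-AS, at percentiles 82.4 and 93.8, but 3 of the other RPTEC libraries also called that region, against 4 of the other 786-O libraries. MIR210, a well known hypoxia-induced miRNA, lay in a region that all 4 parents' libraries called, at percentiles 68.6 and 72.2 in 786-O and 21.7 and 37.4 in RPTEC. The region of MIR34A, a p53 target, stood at 59.0 and 72.2 in 786-O and at 10.6 and 24.8 in RPTEC. MIRLET7I, of the let-7 family, was at 73.5 and 74.3 in 786-O and 48.0 and 65.3 in RPTEC. In all 3 these percentiles of the cell lines did not overlap, and the same held when percentiles were taken over the shared regions alone. When the WT lists were cut to equal length, MIR210 was at 57.3 and 56.2 in 786-O and 7.69 and 37.4 in RPTEC, whereas MIRLET7I overlapped, at 63.9 and 59.6 against 38.8 and 65.3, and MIR34A was not in a region that all 4 cut lists called. Of the 27 shared regions with hairpins, 8 did not overlap with 786-O higher, against 26.0% of all shared regions, and 3 with RPTEC higher, against 14.7%, and the split over all shared regions turned at equal list length, as given below. The 3 shared regions described here are all among those 8. The 3 with RPTEC higher were not among the printed examples, such as that of MIR1184-2, at 17.9 and 23.6 in 786-O and 36.6 and 57.3 in RPTEC.

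Cell-line-only regions also sat on gene starts. A region covered the first 50 transcribed bases of at least 1 gene in 356 of the 786-O-only regions (6.88%), 86 of the RPTEC-only regions (4.11%) and 922 of the regions of all 4 libraries (10.0%). For list and named genes among them, the RefSeq window of 300 bases is shown, with 250 bases before the gene start and 50 after it on the gene's strand. Capitals mark GGACT, a common form of the m6A motif, and AGTCC, the same letters on the opposite strand. Of 18 such starts, 9 lay in regions that 0 other libraries of the other cell line called, and the 6 shown are those called in at least 2 other libraries of their own cell line.
CLDN1, chr3:190322397-190322696, minus strand, RPTEC-only: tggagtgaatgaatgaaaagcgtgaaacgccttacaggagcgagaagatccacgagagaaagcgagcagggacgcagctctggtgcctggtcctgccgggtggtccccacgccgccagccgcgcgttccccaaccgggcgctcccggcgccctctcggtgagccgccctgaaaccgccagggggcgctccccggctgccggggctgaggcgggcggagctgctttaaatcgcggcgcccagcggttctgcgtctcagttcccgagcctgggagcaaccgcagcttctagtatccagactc
CDKN2B, chr9:22009256-22009555, minus strand, RPTEC-only: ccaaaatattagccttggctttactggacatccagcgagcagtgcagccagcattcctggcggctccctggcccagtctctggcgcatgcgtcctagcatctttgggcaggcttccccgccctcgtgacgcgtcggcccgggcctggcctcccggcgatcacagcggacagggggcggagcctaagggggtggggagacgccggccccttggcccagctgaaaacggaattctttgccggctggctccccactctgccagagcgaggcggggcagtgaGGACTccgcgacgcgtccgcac
CXCL1, chr4:73869143-73869442, plus strand, RPTEC-only: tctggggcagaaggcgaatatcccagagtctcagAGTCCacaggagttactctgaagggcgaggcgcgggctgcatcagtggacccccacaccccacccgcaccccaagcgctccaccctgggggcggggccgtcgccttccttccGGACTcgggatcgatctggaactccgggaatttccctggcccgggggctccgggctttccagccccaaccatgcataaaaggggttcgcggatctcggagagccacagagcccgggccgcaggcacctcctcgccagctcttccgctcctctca
EMX2, chr10:117542496-117542795, plus strand, RPTEC-only: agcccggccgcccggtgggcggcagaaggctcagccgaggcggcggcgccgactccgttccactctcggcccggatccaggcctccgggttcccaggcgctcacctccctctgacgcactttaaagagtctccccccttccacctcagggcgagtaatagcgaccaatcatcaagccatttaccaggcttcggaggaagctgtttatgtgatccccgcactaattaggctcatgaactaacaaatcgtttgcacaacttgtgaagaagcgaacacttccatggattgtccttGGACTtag
SPINT1, chr15:40844227-40844526, plus strand, RPTEC-only: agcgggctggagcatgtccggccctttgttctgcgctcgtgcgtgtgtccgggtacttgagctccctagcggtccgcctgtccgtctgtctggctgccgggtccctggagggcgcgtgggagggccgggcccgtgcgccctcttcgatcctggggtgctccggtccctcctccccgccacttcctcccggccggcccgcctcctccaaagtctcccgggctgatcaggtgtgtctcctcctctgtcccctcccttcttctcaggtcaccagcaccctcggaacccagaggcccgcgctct
GUSB, chr7:65982164-65982463, minus strand, 786-O-only: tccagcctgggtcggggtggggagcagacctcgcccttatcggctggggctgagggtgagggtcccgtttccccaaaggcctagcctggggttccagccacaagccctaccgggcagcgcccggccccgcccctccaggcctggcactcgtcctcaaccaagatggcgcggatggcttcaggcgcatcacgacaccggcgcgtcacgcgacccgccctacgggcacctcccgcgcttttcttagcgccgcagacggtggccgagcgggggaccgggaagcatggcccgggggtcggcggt

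The start of CLDN1, a tight junction claudin, was covered at a mean percentile of 96.5 in the RPTEC WT lists, and 4 other RPTEC libraries called it. In CDKN2B, which encodes the cell cycle inhibitor p15, the region had a mean percentile of 90.2 and was also called in 4 other RPTEC libraries. Among these 6 windows, CDKN2B and EMX2 hold GGACT within the transcribed bases, starting at base 29 and at base 43. The start of the chemokine gene CXCL1 had a mean percentile of 83.2 and was called in 3 other RPTEC libraries. GUSB, a lysosomal glucuronidase often used as a reference gene, had a mean percentile of 95.4 in 786-O WT, with 2 other 786-O libraries calling its start. The starts of EMX2, a homeobox gene of the urogenital tract, and SPINT1, a protease inhibitor gene, had mean percentiles of 59.9 and 66.0, each with 2 other RPTEC libraries. Over all 34961 windows, 44.1% hold GGACT or AGTCC. The share was 48.6% of the 414 windows whose transcribed bases a 786-O-only region covered (Wilson 95% interval 43.8% to 53.4%) and 50% of the 106 windows for RPTEC-only regions (40.6% to 59.4%). Both intervals include the share over all windows. Within the 50 transcribed bases and on the gene's strand, GGACT was in 4.89% of all windows, in 25 of the 414 windows of 786-O-only regions (6.04%, 4.12% to 8.76%), in 12 of the 106 of RPTEC-only regions (11.3%, 6.60% to 18.8%) and in 54 of the 1198 of shared regions (4.51%, 3.47% to 5.83%). The interval for RPTEC-only regions lies above the share over all windows, from 12 windows, some of which share a region.

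The 786-O WT lists were longer, with 31411 and 36278 peaks, than the RPTEC WT lists, with 27162 and 23054 peaks. No test on 2 against 2 libraries can give a two-sided exact permutation p under 0.333, so the differences between the 4 WT libraries are given as values. List overlap, as the Jaccard index over bases, was 0.403 for the 786-O pair and 0.338 for the RPTEC pair, and 0.248 to 0.357 for the 4 pairs of different cell lines. The 786-O WT replicate 1 and RPTEC WT replicate 1 lists thus overlapped more (0.357) than the RPTEC pair did. The median width was 468.5 bp for 786-O-only, 488 bp for RPTEC-only and 789 bp for the shared regions, and their median percentiles were 43.6, 44.7 and 66.7. Over all merged regions the medians were 400 bp and 40.7, so cell-line-only regions lay above all regions and below the shared regions. A region called in more lists is merged from more peaks, so width and rank are tied to the class and are not a test. Of the 786-O-only regions 83.8% overlapped a protein-coding gene body (Wilson 95% interval 82.8% to 84.8%), as did 86.5% of the RPTEC-only regions (84.9% to 87.9%) and 93.2% of the shared regions (92.6% to 93.7%). Over all merged regions the share was 87.8%. Most cell-line-only regions lay in genes that the other cell line also called elsewhere. Of 4143 786-O-only regions in exactly 1 protein-coding gene, 65.7% (64.2% to 67.1%) were in a gene with peaks in both RPTEC WT libraries, and 20.1% (18.9% to 21.3%) in a gene with a peak in neither. For 1733 RPTEC-only regions these shares were 65.3% (63.0% to 67.5%) and 26.9% (24.9% to 29.0%). By gene, 57.5% of all protein-coding genes with a peak were called in all 4 libraries. The matching share over all regions was not computed, so these values are not read as a trait of cell-line-only regions.

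The 12 libraries of the other lines separated the classes in the same direction as the parents. The 6 other 786-O libraries called 50.8% ± 12.7 of the 786-O-only regions (SD, n = 6), between 32.6% and 65.1%, and the 6 other RPTEC libraries called 27.0% ± 9.23, between 11% and 36.3% (two-sided exact permutation test, p = 0.00649, adjusted p = 0.00974 over 3 classes). Over all 58997 regions the same libraries called 40.9% ± 6.01 in 786-O (32.4% to 49.1%) and 34.6% ± 6.03 in RPTEC (24.2% to 39.9%), so a smaller gap in the same direction was present over all regions. The ranges overlapped, since the SETD2KO-1R replicate 2 library of 786-O called 32.6% and the SETD2KO-1 replicate 2 library of RPTEC 36.3%. For RPTEC-only regions the values were 22.8% ± 4.59 in 786-O and 44.0% ± 4.34 in RPTEC, with ranges of 17.7% to 29.5% and 40.3% to 52.6% that did not overlap (exact permutation p = 0.00216, the smallest that 6 against 6 allow, adjusted p = 0.00649). The shared regions were called at 88.4% ± 4.44 and 85.2% ± 7.29 (exact permutation p = 0.426). The other lines derive from the same parents, and with the 3 lines as units both differences had an exact permutation p of 0.1, the smallest possible. Without RPTEC WT replicate 1 and without RPTEC WT replicate 2 in the choice of regions, the difference at RPTEC-only regions was -7.39 and -8.50 points, against -21.3 with both, and without 786-O WT replicate 1 that at 786-O-only regions was 14.5 points, against 23.7 (exact permutation p = 0.00433, 0.00649 and 0.0173). A small part of each class kept the contrast in every library, at a share above that of all regions. Of the 786-O-only regions, 165 (3.19%, against 0.490% of all regions) were called in all 6 other 786-O and in 0 of the 6 other RPTEC libraries. The mirror pattern held for 150 of the RPTEC-only regions (7.17%, against 0.388% of all regions). In turn, 557 of the 786-O-only regions (10.8%) and 344 of the RPTEC-only regions (16.5%) were called in none of the 6 other libraries of their own cell line.

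**Figure D1:**
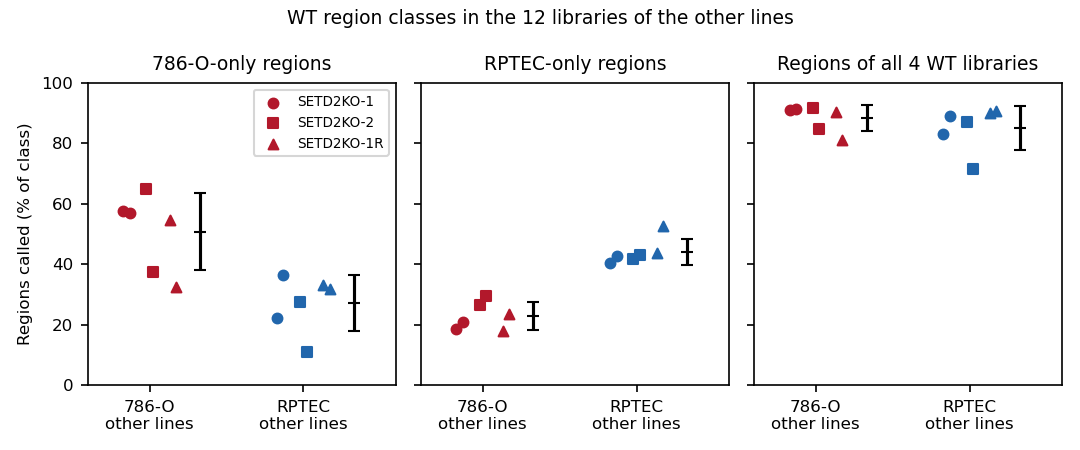
Share of each class of WT regions (vertical axis, percent of the class) called in each of the 12 libraries of the other lines; each symbol is 1 library, its shape the line, and the bar the mean with SD over 6 libraries. For RPTEC-only regions the RPTEC libraries (40.3% to 52.6%) sit above all 786-O libraries (17.7% to 29.5%), whereas the shared regions do not separate.

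By gene, 11741 protein-coding genes had a peak in at least 1 WT library. Of these, 805 were called in both 786-O WT and neither RPTEC WT library (6.86%), 423 in both RPTEC WT and neither 786-O WT library (3.60%), and 6752 in all 4 (57.5%). These shares are the background against which the following list counts are read. The excess in 786-O was not kept at equal list length: when each list was cut to its 23054 top-scoring peaks, 529 genes were 786-O-only and 608 RPTEC-only, and 464 of the 805 and 390 of the 423 genes kept their class. Among the 786-O-only genes, 586 (72.8%) had a peak in more of the other 786-O than of the other RPTEC libraries, against 31.9% of all 11741 genes, and 57 (7.08%) in all 6 of the former and 0 of the latter, against 0.767%. For the RPTEC-only genes the counts in the opposite direction were 319 (75.4%, against 17.1% of all genes) and 93 (22%, against 1.07%). The same calls were read for 14 gene lists.

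**Figure D2:**
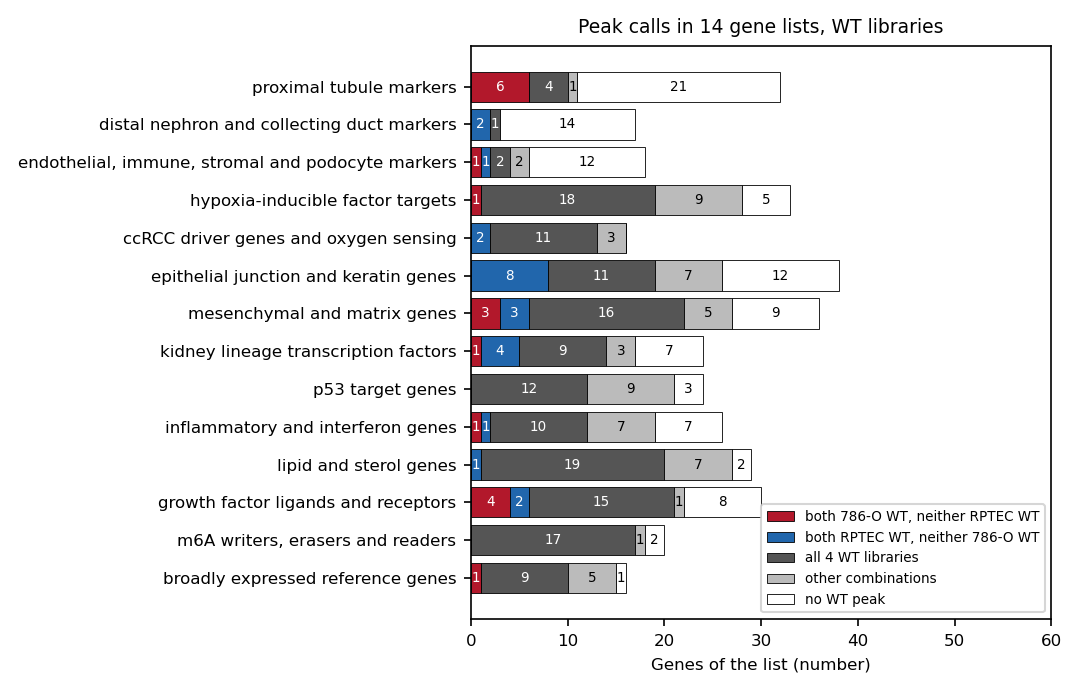
Number of genes (horizontal axis) of each of 14 lists by their calls in the 4 WT libraries; colours give the combination of libraries with at least 1 peak in the gene body. RPTEC-only calls gather in the epithelial junction and keratin list (8 of 26 genes with a peak) and 786-O-only calls in the proximal tubule list (6 of 11). The m6A and p53 lists hold none of either, which is near the shares over all genes with a peak, 6.86% 786-O-only and 3.60% RPTEC-only.

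Of 38 epithelial junction and keratin genes, 26 had a WT peak, 8 were RPTEC-only (30.8%, against 3.60% of all genes with a peak) and 0 were 786-O-only, with 11 called in all 4 libraries. The RPTEC-only members were CLDN1, ESRP2, MAL, MAL2, DSP, JUP, SPINT1 and SPINT2. JUP, the junctional plakoglobin, had 4 and 1 peaks in RPTEC WT, and a peak in 6 of 6 other RPTEC and 0 of 6 other 786-O libraries. No region of JUP was called in both RPTEC WT libraries, whose peaks lay at different places in the gene. CLDN1 had 2 and 2 peaks, and was called in 5 other RPTEC and 0 other 786-O libraries. MAL, a proteolipid of apical transport, had 6 and 5 peaks in RPTEC WT and was called in 4 of the other RPTEC and 0 of the other 786-O libraries. The epithelial splicing regulator ESRP2 (2 and 1 peaks) and the protease inhibitors SPINT1 (2 and 2) and SPINT2 (4 and 4) also had no peak in any of the 8 786-O libraries, and 2, 4 and 2 of the other RPTEC libraries called them. DSP and MAL2 behaved differently. The desmosomal gene DSP had 6 and 5 peaks in RPTEC WT and 0 in both 786-O WT libraries, but 3 to 5 peaks in each of the 6 other 786-O libraries. MAL2 had 3 and 2 peaks in RPTEC WT, yet 4 of the other 786-O and only 1 of the other RPTEC libraries called it. Keratins were mostly shared: KRT8 had 6 and 10 peaks in 786-O and 8 and 6 in RPTEC, and KRT18 had 2 and 3 against 2 and 3. CDH1, which encodes E-cadherin, had no peak in any WT library. With the upper 50% of each list by score, ESRP2, JUP and MAL2 were no longer RPTEC-only.

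The labelled cell type of RPTEC was read on 32 proximal tubule markers. Only 11 had a WT peak, and 21 had none, among them LRP2 and CUBN, the endocytic receptors megalin and cubilin, the phosphate transporter gene SLC34A1, and AQP1. The cell-line-only calls of this list were all in the carcinoma line, with 6 genes 786-O-only (54.5% of the 11, against 6.86% of all genes with a peak) and 0 RPTEC-only. SLC4A4, the basolateral sodium bicarbonate cotransporter, had 13 and 10 peaks in 786-O WT and 0 in RPTEC WT, and 7 to 20 peaks in 5 of the 6 other 786-O libraries, with 0 in SETD2KO-1R replicate 2. In the other RPTEC libraries it had 0 to 3. SLC5A2, the glucose transporter SGLT2, had 1 and 3 peaks in 786-O WT and a peak in 6 of 6 other 786-O and 0 of 6 other RPTEC libraries. A merged region at the edge of the gene, chr16:31490689-31491156, overlaps both SLC5A2 and RUSF1 and was called in 6 other 786-O and 5 other RPTEC libraries, in RPTEC by peaks that do not reach SLC5A2. The 786-O-only region of SLC5A2, chr16:31488883-31489344, lies in that gene alone and was called in 5 and 0. The phosphate transporter gene SLC34A3 had 1 and 4 peaks and was called in all 6 other 786-O libraries, but also in 4 of the other RPTEC libraries. SLC13A3, a dicarboxylate transporter gene, had 2 and 1 peaks, VCAM1, an adhesion molecule, had 1 and 1, and AGT, which encodes angiotensinogen, had 1 and 2. SLC13A3 was called in 5 other 786-O and 2 other RPTEC libraries and VCAM1 in 4 and 0. AGT had no peak in any of the other 12 libraries, and no region of AGT was called in both 786-O WT libraries. CDH6, a cadherin of the proximal tubule lineage, was called in all 16 libraries, with 10 and 10 peaks in 786-O WT and 5 and 4 in RPTEC WT. With the upper 50% of each list by score, SLC5A2, SLC13A3 and AGT were no longer 786-O-only, which leaves 3 of the 6, and with lists of equal length SLC13A3 was not. The RPTEC WT libraries had peaks in 4 and 5 of the 32 markers of their labelled cell type, and the 786-O WT libraries in 11 and 11. In the other lines this gap was smaller, with 6 to 8 markers in the 786-O and 4 to 6 in the RPTEC libraries. ANPEP, called in all 4 WT libraries, had a peak in 0 other 786-O and 6 other RPTEC libraries.

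Of 17 distal nephron and collecting duct markers 3 had a WT peak and 2 were RPTEC-only, CLDN16 and TFAP2B. The CLDN16 gene body overlaps CLDN1, both RPTEC-only regions of CLDN16 lie in CLDN1 as well, and these cannot be assigned to 1 gene of the pair from the lists. TFAP2B, a transcription factor of the distal tubule, had 2 and 2 peaks in RPTEC WT, a peak in 4 of the other RPTEC libraries and 0 in all 8 786-O libraries. Among 18 endothelial, immune, stromal and podocyte markers 6 had a WT peak. PECAM1, KDR, PTPRC, CD3E and NPHS1 had none, the pericyte gene RGS5 was 786-O-only (2 and 3 peaks, called in 6 other 786-O and 2 other RPTEC libraries), and the endothelial cadherin gene CDH5 was RPTEC-only (1 and 1 peaks, called in 2 other RPTEC and 0 other 786-O libraries).

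Kidney lineage transcription factors with peaks in all 4 WT libraries included PAX2, PAX8, LHX1 and SALL1, 9 of the 17 with a peak in all. PAX8, required for nephron formation, had 13 and 16 peaks in 786-O and 12 and 11 in RPTEC. RPTEC-only members were EMX2, IRX1, POU3F3 and SIM2 (23.5%, against 3.60%), and WT1 was 786-O-only (2 and 1 peaks, called in 4 other 786-O and 0 other RPTEC libraries). With the upper 50% of each list by score, and with lists of equal length, WT1 was no longer in that class. SIM2, a bHLH-PAS factor, had 10 and 5 peaks in RPTEC WT, 4 to 9 in each other RPTEC library and 0 in every 786-O library. IRX1 had 2 and 2 peaks in RPTEC WT, and its calls in the other lines were likewise 6 of 6 and 0 of 6. POU3F3 had 3 and 4 peaks in RPTEC WT and 0 and 0 in 786-O WT, but 2 to 4 peaks in each of the 6 other 786-O libraries. Its RPTEC-only region, chr2:104853894-104858470, was 4577 bp wide, and all 12 other libraries called it.

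Of the 27 mesenchymal and matrix genes with a peak, 3 were 786-O-only (11.1%, against 6.86% of all genes with a peak) and 3 RPTEC-only (11.1%, against 3.60%). A further 16 were called in all 4 libraries. TWIST1 and TWIST2, which encode factors that drive epithelial to mesenchymal transition, were RPTEC-only. TWIST1 had 2 and 2 peaks in RPTEC WT and 2 in each other RPTEC library. TWIST2 had 3 and 3 peaks in RPTEC WT and 8 to 12 in the other RPTEC libraries. Neither gene had a peak in any 786-O library. FBN1, which encodes fibrillin-1, had 3 and 3 peaks in RPTEC WT, 4 to 8 in the other RPTEC libraries and 0 to 2 in the other 786-O libraries. The 786-O-only members were SNAI1 (1 and 1 peaks, called in 3 other 786-O and 1 other RPTEC libraries), SPARC (1 and 3, called in 3 and 0) and COL5A1 (2 and 3). No region of SPARC was called in both 786-O WT libraries. COL5A1 went the other way in the other lines, with 0 peaks in all 6 other 786-O libraries and 11 to 20 peaks in the 4 RPTEC libraries of SETD2KO-1 and SETD2KO-1R. ZEB1 (12 and 15 peaks in 786-O, 13 and 11 in RPTEC), ZEB2, CDH2 and AXL were called in all 16 libraries. SPARC and COL5A1 left the 786-O-only class both with the upper 50% of each list by score and with lists of equal length, and TWIST2 left the RPTEC-only class with the upper 50%.

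Among growth factor ligands and receptors, 22 had a WT peak, 15 of them in all 4 libraries. The 4 786-O-only members (18.2%, against 6.86%) were FGFR2, FGFR3, FGFR4 and EREG. FGFR2 had 1 and 3 peaks in 786-O WT, FGFR3 had 2 and 3, and FGFR4 had 1 and 1, in regions that the 786-O WT libraries did not share. These 3 fibroblast growth factor receptors had a peak in 6, 5 and 5 of the 6 other 786-O libraries and in 0 of the 8 RPTEC libraries. FGFR1 was shared, with 3 and 6 peaks in 786-O and 4 and 3 in RPTEC. EPHB4, an ephrin receptor, was RPTEC-only with 5 and 1 peaks and was called in 6 other RPTEC and 2 other 786-O libraries. With the upper 50% of each list by score, FGFR2, FGFR3 and FGFR4 were no longer 786-O-only, nor was FGFR4 with lists of equal length, and EREG (1 and 1 peaks) lost its calls when the peak midpoint had to lie in the gene body. INSR was RPTEC-only with 1 and 1 peaks, not so with the upper 50%, and was called in 1 other library of each cell line. EGFR (15 and 17 peaks against 9 and 10) and MET (12 and 13 against 12 and 13) were shared.

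Hypoxia-inducible factor targets were mostly called in both cell lines, with 18 of the 28 genes that had a peak called in all 4 libraries, 1 786-O-only (3.57%, against 6.86%) and 0 RPTEC-only. The exception was PLIN2, the lipid droplet coat gene, with 1 and 1 peaks in 786-O WT, called in 3 other 786-O and 0 other RPTEC libraries. CA9, a hallmark target of ccRCC, had no WT peak. NDRG1 had 2 and 7 peaks in 786-O and 0 and 1 in RPTEC, and EGLN3 3 and 3 against 0 and 1, so that neither entered the 786-O-only class. VEGFA was even, with 5 and 7 peaks against 6 and 7. Of 16 ccRCC driver and oxygen sensing genes, 11 were called in all 4 libraries, among them SETD2 (8 and 10 peaks in 786-O, 7 and 10 in RPTEC) and VHL (1 and 2 against 1 and 1). CDKN2A and CDKN2B were RPTEC-only (12.5%, against 3.60%).

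Of the 18 m6A machinery genes with a peak, 17 were called in all 4 libraries, against 57.5% of all genes with a peak. The 786-O-only and RPTEC-only counts were 0, but these classes hold only 6.86% and 3.60% of all genes. In a list of 18 genes, 0 is near those shares and is not read as a trait of the list. METTL14 had 1 and 1 peaks in 786-O and 1 and 2 in RPTEC, the demethylase gene FTO had 5 and 5 against 3 and 3, and YTHDF2, which encodes a reader that promotes decay, had 3 and 5 against 3 and 6. METTL3 had 1 peak in 786-O WT replicate 1 and 0 in the other 3 libraries. None of the 21 p53 target genes with a peak was 786-O-only or RPTEC-only, which is likewise near the shares over all genes. CDKN1A had 1 and 3 peaks in 786-O against 2 and 1 in RPTEC. Of 27 lipid and sterol genes with a peak, 19 were called in all 4 libraries, 1 was RPTEC-only (3.70%, against 3.60%) and 0 were 786-O-only. Of 19 inflammatory and interferon genes with a peak, IRF7 was 786-O-only (1 and 4 peaks, called in 4 other 786-O and 3 other RPTEC libraries) and CXCL1 RPTEC-only (1 and 2 peaks, called in 0 other 786-O and 4 other RPTEC libraries). Of 15 broadly expressed reference genes with a peak, GUSB was 786-O-only (4 and 4 peaks, called in 5 other 786-O and 1 other RPTEC libraries), and none of the other 14 was in either class.

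**Figure D3:**
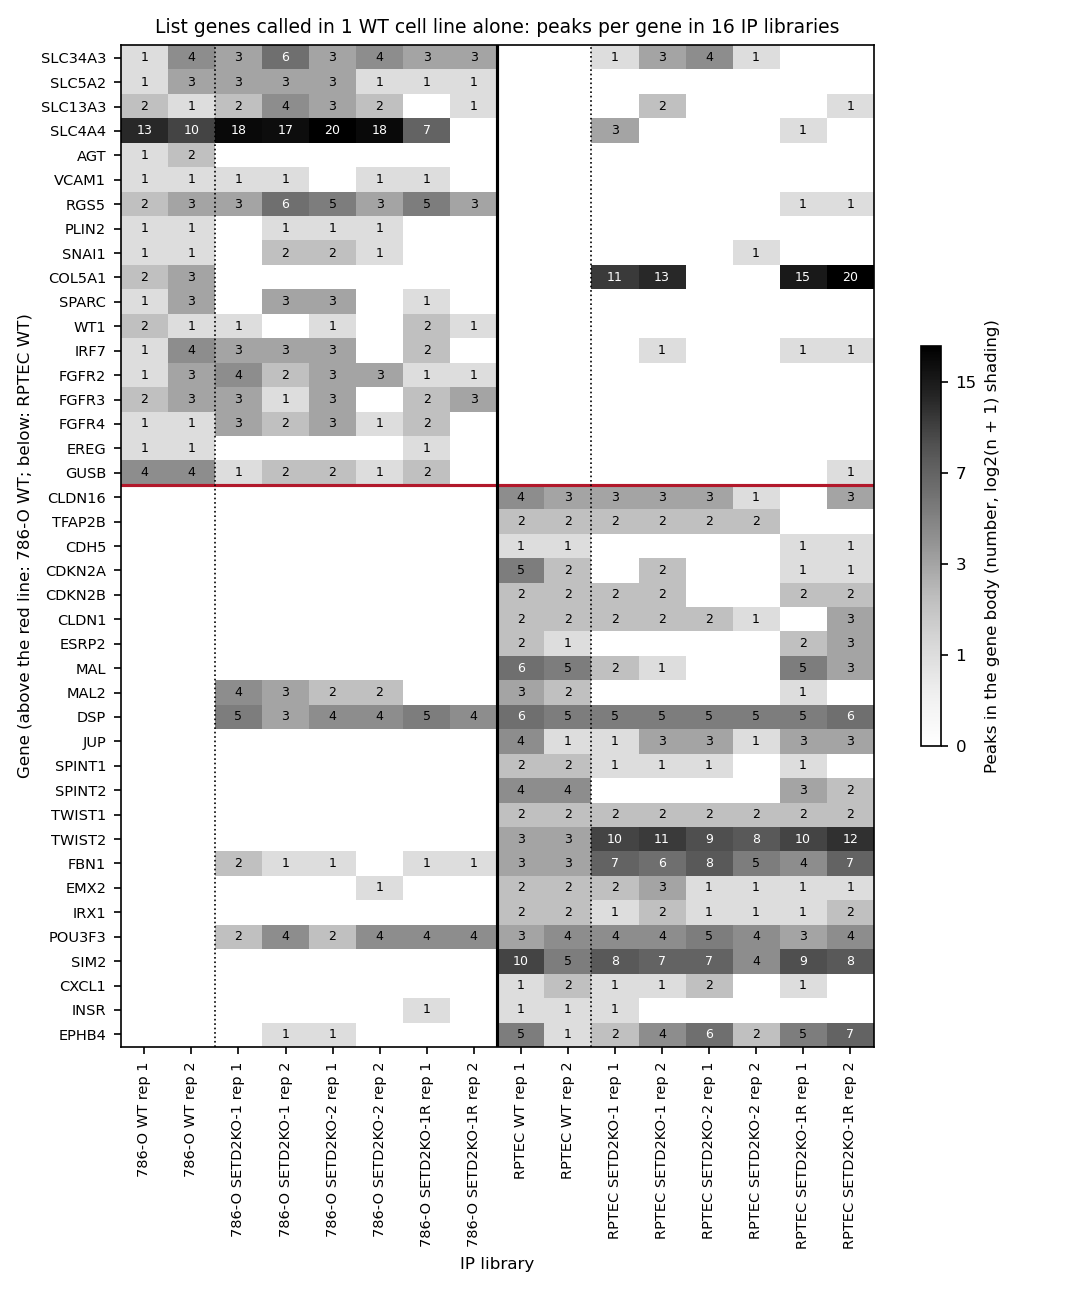
Number of peaks in the gene body (printed in each cell, shaded by log2(n + 1), blank where 0) for list genes called in 1 WT cell line alone (rows; 786-O-only above the red line, RPTEC-only below) in all 16 IP libraries (columns; dotted lines set off the WT libraries). TWIST1, TWIST2, SIM2, IRX1 and JUP are called in all 8 RPTEC and in 0 of 8 786-O libraries, whereas DSP and POU3F3 are absent only from the 2 786-O WT libraries.

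Some genes held many cell-line-only regions. TENM3, a teneurin of cell adhesion, had the most 786-O-only regions, 21, with 29 and 39 peaks in 786-O WT and 0 in both RPTEC WT libraries. The other lines did not keep this contrast as presence or absence, since TENM3 had 29 to 42 peaks in the other 786-O libraries and 7 to 22 in the other RPTEC libraries. GLIS1, a zinc finger factor, had 15 such regions, 23 and 26 peaks in 786-O WT, 7 to 25 in the other 786-O libraries and 0 in 7 of the 8 RPTEC libraries. TRABD2B, a regulator of Wnt proteins, had 11 regions, 14 and 30 peaks in 786-O WT and 0 peaks in all 8 RPTEC libraries. FRMD4A (18 regions) and ZMIZ1 (14 regions) had peaks in both parents, at 36 and 40 against 11 and 16 for FRMD4A and 31 and 42 against 13 and 5 for ZMIZ1. On the RPTEC side CDH13, the anchored T-cadherin, led with 17 regions, 40 and 27 peaks in RPTEC WT, 27 to 51 in the other RPTEC libraries and 0 in every 786-O library. CDH4, a classical cadherin, had 12 regions, with 28 and 26 peaks in RPTEC WT, 9 to 47 in the other RPTEC libraries and 0 to 2 in the 786-O libraries. WNT7A, a secreted Wnt ligand, had 9 regions, 15 and 10 peaks in RPTEC WT, 3 to 9 in the other RPTEC libraries and 0 in all 8 786-O libraries. NXN and SIPA1L3 had 9 regions each and peaks in every library of both cell lines.

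The highest-ranked cell-line-only regions lay mostly in genes that both parents called. Of the 12 leading 786-O-only regions, 1 per gene, only those of EEF1A2 and NCAM1 were in genes with no RPTEC WT peak. The first was chr19:2434462-2434738 in LMNB2, the lamin B2 gene, at percentiles 99.99 and 99.99, while LMNB2 as a whole had 10 and 9 peaks in 786-O and 5 and 6 in RPTEC. MYH9 (22 and 22 peaks against 22 and 14), PES1, CDK11B, MAF1, TNIP2, CAPRIN1, NDUFA13, RPL8 and CKAP2L also had a peak in at least 1 RPTEC WT library, and their regions were also called in 1 to 6 of the other RPTEC libraries. EEF1A2, a translation elongation factor gene of restricted expression, had 8 and 6 peaks in 786-O WT, and its region chr20:63495991-63496292 was called in 5 of the other 786-O and 0 of the other RPTEC libraries. NCAM1, the neural cell adhesion molecule gene, had 15 and 17 peaks in 786-O WT, but its region was called in 1 other 786-O and 2 other RPTEC libraries. Among the 12 leading RPTEC-only regions, AFAP1L2, PTK7, SAA1, BEX4, SULF2 and POU3F3 were in genes with no 786-O WT peak. AFAP1L2, which encodes an actin-associated adaptor, had 8 and 7 peaks in RPTEC WT, and its region chr10:114297362-114297662 stood at percentiles 99.91 and 99.14 and was called in 5 other RPTEC and 0 other 786-O libraries. BEX4 (1 and 1 peaks) had the same calls, and PTK7, a Wnt pathway pseudokinase gene (2 and 2 peaks), was called at its region in 4 and 1. The regions in ACTN4, FUT8, NUFIP2, TGM2 and DCAF1 lay in genes that both parents called, and the other RPTEC libraries called the regions of ACTN4 and NUFIP2 0 and 1 times, against 3 and 4 calls in the other 786-O libraries.

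Ranks were then compared within the 9203 regions called in all 4 libraries, a measure that the selection of cell-line-only regions did not use. Percentiles of the cell lines did not overlap in 2395 regions with 786-O higher (26.0%) and 1350 with RPTEC higher (14.7%). This split depends on the ranking, since the lists differ in length: with percentiles taken over the shared regions alone it was 1820 (19.8%) against 1854 (20.1%), and with lists of equal length 1048 (13.7%) against 2021 (26.5%) of 7631 shared regions. limma on normal scores of the percentiles called 0 regions with 786-O higher (0.00%) and 0 with RPTEC higher (0.00%) at an adjusted p of 0.05, while 905 had an unadjusted p of at most 0.05. Without RPTEC WT replicate 1, which leaves 1 library that is assumed to vary like the other pair, 106 and 17 regions were called. In the other lines, the median percentile was higher in 786-O at 64.8% of the 2372 regions of the first kind that had a rank there, at 45.4% of 1327 of the other kind, and at 56.2% of all 9104 shared regions with a rank. The 8 largest non-overlapping shifts per direction, 1 per gene, are described without a call. PPP2R3A, which encodes a regulatory subunit of protein phosphatase 2A, stood at percentiles 6.45 and 3.34 in 786-O and 79.7 and 88.0 in RPTEC, a normal-score shift of -2.68 ± 0.37 (SE; 786-O minus RPTEC, limma adjusted p = 0.292). In the other lines its medians were 29.9 and 33.2. TFAP2A, a distal tubule transcription factor gene, was at 1.89 and 41.8 against 80.7 and 86.9, and its medians in the other lines, 56.0 in 786-O and 81.7 in RPTEC, kept that order. ADAMTS5, an extracellular protease gene, was at 42.5 and 30.5 against 96.1 and 96.2, and was called in 0 of the other 786-O and 5 of the other RPTEC libraries. TIMP2, CAB39, CCDC88C, NHS and ZNF664-RFLNA were the others with RPTEC higher. With 786-O higher, ZMIZ1 was at 86.9 and 82.8 against 13.7 and 15.95, with other-line medians of 84.1 and 69.2. B4GALT2, a galactosyltransferase gene, was at 87.0 and 77.3 against 26.7 and 3.86, with 55.4 and 35.4 in the other lines. CCDC97 and PCNX2 also had the higher other-line median in 786-O, while ITGB3BP, PLOD3, TRAF2 and TRPM2 had it in RPTEC, the last from 1 library.

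**Figure D4:**
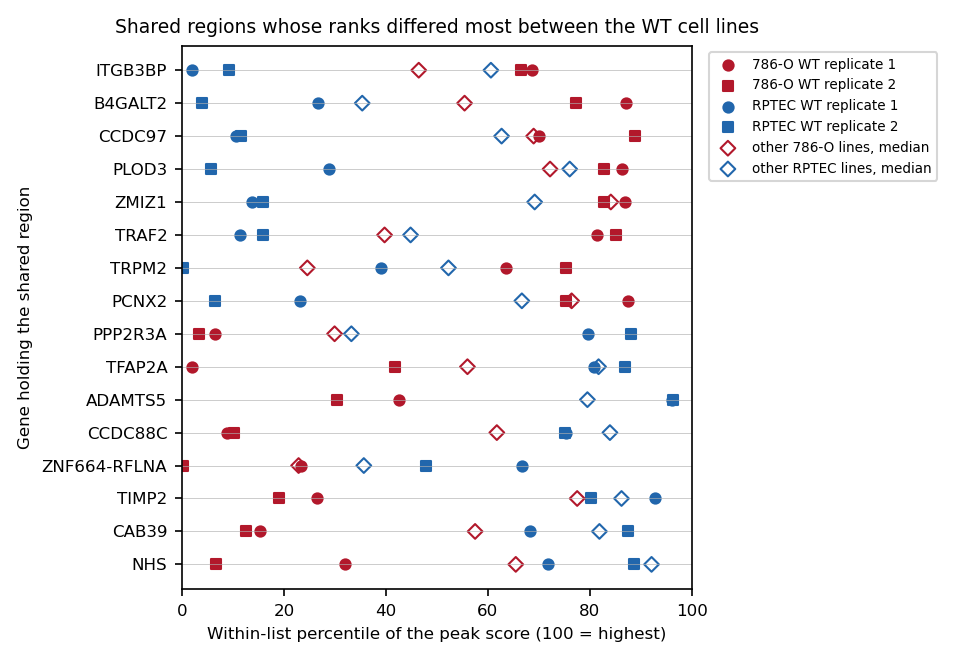
Within-list percentile of the peak score (horizontal axis, 100 = highest) of 16 shared regions, named by their gene, in the 4 WT libraries (filled) and as the median over the other lines of each cell line (open). The filled points of the cell lines are far apart by selection; the open points are closer and change order for ITGB3BP, PLOD3, TRAF2 and TRPM2.

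The chromosomes contributed unequally. RPTEC-only regions outnumbered 786-O-only regions on chromosome 14 alone, with 83 against 61, whereas the reverse held on all other chromosomes. Chromosome 14 held 2.19% of the peaks of 786-O WT and 3.05% of RPTEC WT (means, n = 2). In the other lines it held 2.44% ± 0.40 against 2.94% ± 0.0808 (SD, n = 6), which did not pass (exact permutation test, adjusted p = 0.0533). The 786-O knockout libraries lay between 2.10% and 2.28%, but those of SETD2KO-1R, at 2.89% and 3.0%, were within the range of the other RPTEC libraries, 2.83% to 3.03%. In the 12 other libraries, 13 of 23 chromosomes (56.5%) passed an adjusted p of 0.05 (two-sided exact permutation test over 6 against 6 libraries), and with the 3 lines as units the smallest possible p is 0.1. Of these 13, 9 also had WT values apart in the same direction. The share of chromosome 12 was 4.44% against 5.0% in WT and 4.03% ± 0.148 against 4.96% ± 0.143 in the other lines (SD, n = 6; exact permutation test, adjusted p = 0.0083). Chromosome 9 went the other way, with 5.04% against 4.41% in WT and 5.60% ± 0.784 against 4.50% ± 0.0498 in the other lines (exact permutation test, adjusted p = 0.0181). The 4 786-O knockout libraries lay between 5.96% and 6.25%, while those of SETD2KO-1R were at 4.69% and 4.50%, against 4.42% to 4.54% in the other RPTEC libraries. Chromosome 16 changed direction between the sets, with 4.49% against 4.92% in WT but 5.57% ± 0.208 against 4.70% ± 0.199 in the other lines (exact permutation test, adjusted p = 0.0083), and chromosome 2 was the only other of the 13 to do so.

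**Figure D5:**
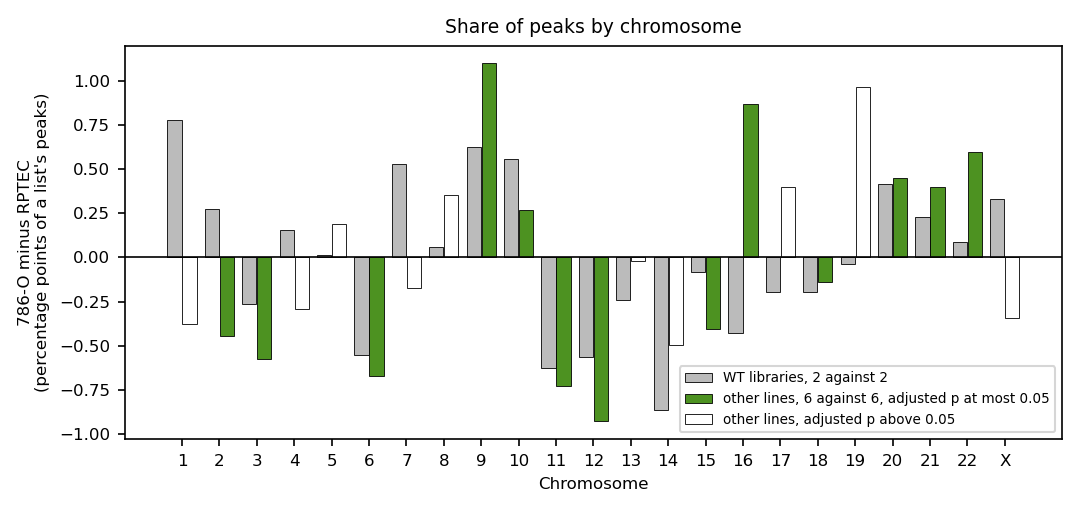
Peaks on each chromosome as a share of the list, 786-O minus RPTEC (vertical axis, percentage points), for the 4 WT libraries (grey) and the 12 libraries of the other lines (green where the adjusted exact permutation p is at most 0.05, white otherwise). Of the green bars, chromosomes 3, 6, 11, 12 and 18 are lower and 9, 10, 20 and 21 higher in 786-O in both sets with the WT groups apart, and chromosomes 2 and 16 differ in direction.

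Within chromosome 9, the CDKN2A and CDKN2B genes held peaks in RPTEC WT and none in 786-O. In RPTEC WT, CDKN2A, which encodes p16 and p14ARF, had 5 and 2 peaks and CDKN2B 2 and 2. All 8 786-O libraries had 0 peaks in both genes. In 786-O WT the nearest peaks ended at 21914008 and 21913977, within the neighbouring MTAP gene (chr9:21802636-21941115), which encodes an enzyme of methionine salvage, and the next peaks began at 22451266 and 22439918. The flank on the MTAP side was similar in RPTEC WT, where the last peaks before both genes ended at 21913937 and 21914465. On the other side the next peaks began nearer than in 786-O WT, at 22012403 in replicate 1 and at 22369133 in replicate 2. In RPTEC WT replicate 2 the stretch from CDKN2B to that position was thus also without peaks. MTAP itself had 16 and 12 peaks in 786-O WT and 10 and 16 in RPTEC WT. Of the other RPTEC lines, SETD2KO-1 and SETD2KO-1R had CDKN2B peaks in all 4 libraries, and both SETD2KO-2 libraries had 0 peaks in CDKN2A, CDKN2B and MTAP. The 2 regions of CDKN2B, chr9:22005265-22006459 and chr9:22008623-22009411, stood at mean percentiles of 92.1 and 90.2 in RPTEC WT, and the latter is the one on the gene start printed above.

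Peak placement differed little between the parents. In 786-O WT protein-coding gene bodies held 87.4% ± 0.185 of the peaks (SD, n = 2) and in RPTEC WT 89.1% ± 0.350, and 6.0% ± 0.00796 against 4.97% ± 0.234 lay in no gene. With the same number of top-scoring peaks per library the gap in protein-coding genes shrank from -1.70 to -0.13 percentage points. In the other lines the share in protein-coding genes was 83.7% ± 1.40 in 786-O and 86.8% ± 2.23 in RPTEC (n = 6 each, exact permutation test, adjusted p = 0.0505 over 7 measures). Peaks within 1000 bp of a gene start made up 10.0% and 10.1% of the 786-O WT lists and 9.82% and 6.89% of the RPTEC WT lists, so the RPTEC pair differed among themselves by more than replicate 1 differed from 786-O. With each gene body cut into 10 equal parts on its own strand, the last part held 19.7% and 19.8% of peaks in 786-O WT and 20.9% and 21.2% in RPTEC WT, and the first part held 14.6% and 14.7% against 14.1% and 11.5%. The median peak width was 400 and 371 bp in 786-O WT and 403 and 376 bp in RPTEC WT.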

How the data were processed

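The authors prepared stranded total RNA libraries with an E. coli RNA spike-in, used STAR for alignment and HTSeq for counting, and called peaks of IP over Input per library with MACS2; hg38 and these tools are named in the submitters' processing notes. The deposited values are a whole-number score per peak, of unstated scale, with position and summit. The score served only for a within-list percentile. The depth of each library is unknown, and Input libraries were not analysed here. The lists of the 2 cell lines carry different assay prefixes whose meaning is not stated, so prefix and cell line cannot be told apart.

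The 4 WT lists hold 117905 peaks on chromosomes 1 to 22 and X, and 376 on other contigs, which were left out. Gene bodies came from RefSeq GRCh38.p14, without exons: 59098 genes on these chromosomes, 19974 of them protein-coding, and 359 of 360 list entries were matched. Libraries were taken as replicates, and p-values measure only the spread between them, which may be technical. Group differences used two-sided exact permutation tests with Benjamini-Hochberg adjustment. Shared regions were fitted with limma 3.58.1 (R 4.3.3) on normal scores of the percentile of the highest overlapping peak. Percentages of regions have Wilson 95% intervals, over regions that are not independent. In data simulated for this comparison (9203 regions), the fit recovered 50% of planted shifts of 2 and 99% of shifts of 4, with 11 false calls. Genes named were the 12 highest-ranked cell-line-only regions per direction, the 5 genes with most such regions, all list genes called in 1 parent alone, the 8 largest rank shifts per direction (regions apart between cell lines, since none passed), SETD2, METTL3, VHL, CDKN2A and, after their values were seen, other list members given by their number of peaks. Some genes that this rule names are not reported here. The members and lists were chosen with earlier results of these data known. Replicate numbers did not pair the libraries, since the correlation of replicate differences between cell lines was -0.04 over shared regions. Python 3.11.15, pandas 2.3.3 and SciPy 1.17.1 were used.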

Additional observations from a re-analysis of the deposited data

Results flagged for a closer look

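In 1 of 66 groups of 6 libraries examined, 1 library stood far from the others: RPTEC SETD2KO-1R replicate 2 called 52.6% of the RPTEC-only regions, while the other 5 RPTEC libraries called 40.3% to 43.7%. Chance marks about 1 in 20 such groups.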

How the results depend on the processing

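The counts of cell-line-only regions moved with the peaks and units counted. 786-O-only and RPTEC-only regions numbered 2694 and 1029 with the upper 50% of each list by score, and 13095 and 5164 when bins of 200 bp with 100 bp or more under a peak replaced regions. When every list was cut to its 23054 top-scoring peaks, 2874 regions and 529 genes were 786-O-only and 2548 regions and 608 genes RPTEC-only, so the excess of 786-O-only genes turned, as did the split of shared regions whose percentiles did not overlap (1048 with 786-O and 2021 with RPTEC higher). With 1 WT library left out, 786-O-only regions ranged from 6503 to 17123, RPTEC-only regions from 3072 to 7909, 786-O-only genes from 1148 to 1773 and RPTEC-only genes from 606 to 692, since fewer libraries must then agree, and without RPTEC WT replicate 2 the excess of 786-O-only regions turned (6503 against 7553). In the other lines the difference was then 14.5 to 21.5 points for 786-O-only regions and -14.4 to -7.39 for RPTEC-only regions. The Jaccard difference between pairs of the same and of different cell lines, 0.0661, was 0.0206 to 0.14. With lines as units, the differences of 23.7 and -21.3 points had an exact permutation p of 0.1, and 0 of 23 chromosomes passed. At that equal number, the WT differences, 786-O minus RPTEC, were 26.5 bp in median width, and in percentage points -0.128 in protein-coding genes, 0.115 in other genes only, 0.013 in no gene and 1.01 near gene ends. The rank fit called 0 regions in both directions under the replicate block, and 0 to 106 (786-O higher) and 0 to 17 (RPTEC higher) with 1 library left out, the highest of both without RPTEC WT replicate 1. The median width difference, -4 bp, ranged from -18.5 to 10.5 bp with 1 library left out. Of 128 comparisons with an alternative, 100 were labelled as unchanged. That label was wide, since it took in this change of sign and the move from -21.3 to -7.39 points at RPTEC-only regions. Of 616 comparisons for the 79 named genes, 584 kept their WT calls, and 18 of the 32 that moved did so with the upper 50% of each list. The cause was not tested.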

Other observations

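Several list genes had peaks in a WT parent but in 0 of the 6 other libraries of the same cell line, or the reverse, which the comparison of parents alone does not show. In 786-O, KRT19 had 1 and 2 peaks in WT, ANPEP 3 and 6, SCNN1A 1 and 2 and KCNJ15 1 and 1, and all 4 genes had 0 peaks in each of the 6 libraries of SETD2KO-1, SETD2KO-2 and SETD2KO-1R. ANPEP, which encodes aminopeptidase N of the brush border, and KRT19 had a peak in 6 of 6 other RPTEC libraries. The reverse held in RPTEC for CDH11, a mesenchymal cadherin gene, with 0 and 0 peaks in WT and 1 to 3 in each of the other RPTEC libraries. These genes were chosen after their values were seen, and no test was run.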
